A study of Mus musculus with 11 samples.

Results

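Wtip, its Ajuba LIM relatives and genes of the Hippo pathway were examined in poly(A) RNA from mouse colorectal organoids. The 10 genes were taken by name from the deposited count table of 47131 genes: Wtip, Ajuba, Limd1, Lats1, Lats2, Amotl2, Yap1, Wwtr1, Ccn1 and Ccn2. All 10 were in the table and all 10 passed the filter on low counts, as did 14840 genes in all. The set was chosen by the measured fold change and adjusted p of Wtip between NAP and control organoids, and the other genes were added as its relatives or as parts of its pathway. The values of that comparison are therefore a description of these genes, and their p-values do not stand as independent evidence.

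The organoids, 3-dimensional epithelial cultures, were raised in Matrigel out of colon tissue of female C57BL/6J mice 6 to 8 weeks old. The 6 NAP libraries came from organoids kept with 10 pM NAP for 48 h. The 5 control libraries came from organoids that one label calls untreated and another calls vehicle-treated with phosphate-buffered saline. The labels do not say what NAP stands for, number the libraries as biological replicates without naming separate animals or cultures, and put all of them in batch 1, so the spread between libraries may be technical in part.

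The Hippo pathway is a kinase cascade that restrains growth. The LATS kinases phosphorylate the coactivators YAP (gene Yap1) and TAZ (gene Wwtr1) and keep them out of the nucleus, while unphosphorylated YAP and TAZ bind TEAD factors and switch on genes such as Ccn1, Ccn2 and Amotl2. Ajuba, LIMD1 and WTIP carry LIM domains at their carboxyl end and can bind LATS kinases at cell junctions, which holds the kinases inactive. In the intestine YAP is known for its part in regeneration of the epithelium after injury.

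Library totals ranged between 16595733 and 20981155 counts in NAP libraries and between 16546263 and 21947414 in controls. Controls 2 and 5 had 27218 and 25725 genes detected (at least 1 count), against 19828 to 22390 in the other libraries. All 8 epithelial markers looked for were detected, with a summed level of 10043 to 13622 CPM in NAP libraries and 9360 to 17021 CPM in controls (CPM are counts scaled to a common library size with TMM). The 10 fibroblast and muscle markers summed to 7.87 to 52.8 CPM in NAP libraries and 2.52 to 33.0 CPM in controls, most of it from Pdgfrb, and none of the 10 was at 0 in every library. The controls differed widely from each other: 8 stem cell markers summed to 1422, 159, 718, 1786 and 161 CPM in controls 1 to 5, against 325 to 611 CPM in NAP libraries. Slc12a2 gave most of this sum in every library. In control 1, Lgr5, Smoc2 and the scarce Olfm4 lay within the NAP range, while Ascl2, Axin2, Lrig1, Sox9 and Slc12a2 lay above it. The sum of 8 absorptive colonocyte markers ran opposite to the stem cell sum, with 3325, 16393, 5442, 2383 and 15508 CPM in controls 1 to 5 and 7246 to 12337 CPM in NAP libraries. Aqp8 and Car1 gave most of it in controls 2 and 5 (6945 and 4718 CPM in control 2). There Car1, Car4, Slc26a3, Aqp8 and Guca2a lay above every NAP library, Krt20 within them and Emp1 below, at 603.9 and 660.5 CPM. Ceacam1 was lower in every control (732.5 to 945 CPM) than in any NAP library (1343 to 1982 CPM). In control 1 Slc26a3, at 1040 CPM, lay above every NAP library. None of 7 marker sums passed an adjusted p of 0.05 between NAP and control libraries in the two-sided exact permutation test (smallest adjusted p = 0.439 over 7 lists, for immune markers). With controls 2 and 5 left out together, colonocyte markers were higher after NAP by 6215 CPM (exact permutation test, adjusted p = 0.0417). Stem cell markers were lower, at a difference of −845 CPM (same test, adjusted p = 0.0417). Controls 2 and 5 are the controls with the highest colonocyte and the lowest stem cell marker sums. Without them, every remaining control lies outside the NAP range of both sums. The result follows from which libraries were left out, and its p-values are no evidence of a difference.

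The RefSeq start-site windows (GRCm38.p6, 250 bases before to 50 bases after the start) of 8 of the 10 genes were at hand, and 4 are shown because the results below turn on these genes. The core that TEAD factors recognise, GGAATG or on the other strand CATTCC, is in capitals. The Wtip window (chr7:34133219-34133518, minus strand) held 4 copies, which begin at positions −245, −134, −100 and −10 from the start. The Ajuba window (chr14:54577612-54577911, minus strand) held 2, and the windows of Ccn1 (chr3:145649936-145650235, minus strand) and Amotl2 (chr9:102717554-102717853, plus strand) held 1 each.
Wtip: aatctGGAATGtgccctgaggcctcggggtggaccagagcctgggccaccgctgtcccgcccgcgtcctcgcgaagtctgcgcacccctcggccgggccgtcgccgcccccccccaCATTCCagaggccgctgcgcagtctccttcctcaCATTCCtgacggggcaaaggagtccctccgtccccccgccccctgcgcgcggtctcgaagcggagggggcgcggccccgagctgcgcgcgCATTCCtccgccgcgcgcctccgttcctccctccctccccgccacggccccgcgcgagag
Ajuba: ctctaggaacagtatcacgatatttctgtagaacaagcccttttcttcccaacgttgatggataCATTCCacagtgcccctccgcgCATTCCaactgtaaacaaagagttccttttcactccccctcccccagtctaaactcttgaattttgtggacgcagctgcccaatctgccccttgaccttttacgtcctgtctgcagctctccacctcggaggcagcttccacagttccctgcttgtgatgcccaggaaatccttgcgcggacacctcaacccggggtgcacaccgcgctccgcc
Ccn1: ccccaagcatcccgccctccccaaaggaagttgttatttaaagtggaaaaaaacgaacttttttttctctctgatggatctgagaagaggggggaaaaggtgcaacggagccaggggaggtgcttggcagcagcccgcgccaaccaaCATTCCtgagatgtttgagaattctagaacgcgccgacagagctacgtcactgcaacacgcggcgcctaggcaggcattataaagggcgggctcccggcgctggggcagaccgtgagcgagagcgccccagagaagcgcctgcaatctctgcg
Amotl2: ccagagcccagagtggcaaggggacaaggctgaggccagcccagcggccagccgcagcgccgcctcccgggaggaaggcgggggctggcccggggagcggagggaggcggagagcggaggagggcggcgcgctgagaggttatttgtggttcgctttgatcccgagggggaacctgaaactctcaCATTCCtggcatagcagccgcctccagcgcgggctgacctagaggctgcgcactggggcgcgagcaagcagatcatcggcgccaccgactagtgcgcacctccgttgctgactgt

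Of 32851 such windows in the table, 14.7% held at least 1 copy of the hexamer, 1.36% at least 2 and 0.0183%, or 6 windows, at least 4. The Yap1 window, both Wwtr1 windows, which overlap, and 1 of 2 Lats2 windows also held a copy, and the Lats1 window held none. The Wtip window was 75.0% G and C, against a median of 52.7% over all windows. A match of these letters is a description of the window and says nothing of binding in these organoids.

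Wtip, which encodes the Wilms tumour 1 interacting protein, was lower in treated organoids, at 0.32 times its control level. Its level was 9.11 CPM in the lowest NAP library, 9.82 CPM at the median and 17.9 CPM in the highest, against 35.4, 45.96, 29.6, 19.7 and 44.8 CPM in controls 1 to 5. The groups did not overlap, as was so for 4.70% of all tested genes and with NAP lower for 2.57%. Of the NAP libraries, 5 lay between 9.11 and 10.4 CPM, and NAP 6, the highest, stayed just below control 4, the lowest control. The mean was 11.04 ± 3.40 CPM after NAP (SD, n = 6) and 35.1 ± 10.96 CPM in controls (SD, n = 5). By edgeR's quasi-likelihood test, which called 2.12% of all tested genes at an adjusted p of 0.05, the log2 fold change was −1.67 (SE 0.25, adjusted p = 0.0343), and its p ranked 5 among 14840 genes from the smallest. Among controls Wtip was highest in controls 2 and 5, with the highest colonocyte marker sums, and lowest in control 4, with the lowest. Controls 2 and 5 also had the most genes detected of all libraries. The part of these markers, or of this difference between libraries, in the Wtip level was not tested. The log2 fold change of Wtip was −1.33 (adjusted p = 0.0386) without controls 2 and 5 and −1.83 (adjusted p = 0.0104) without controls 1 and 4. Less RNA per cell and fewer cells that make it cannot be told apart in these bulk libraries.

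Wtip (gene ID 101543) occupies positions 33808966 to 33832742 on the minus strand of chromosome 7 in GRCm39, and no other gene of the deposited table overlaps it. Its transcripts are short and rich in G and C. The gene length in the table is 2053 bases, against a median of 3466 over tested genes, and the transcript GC content is 60.3%, higher than in 96.2% of the tested genes with a value. Libraries differed along both properties. Across genes, GC content and how far a library departed from the average of all libraries had a rank correlation that ran from −0.54 to 0.11 in NAP libraries and from 0.01 to 0.37 in controls, and for gene length from −0.05 to 0.17 in NAP libraries and from −0.38 to 0.18 in controls. The GC value was 0.148, 0.365, 0.177, 0.0147 and 0.305 in controls 1 to 5, highest in the controls highest in Wtip and lowest in control 4. In NAP 6, the NAP library highest in Wtip, it was the lowest of all, at −0.543. The value for gene length was lowest of all libraries in controls 2 and 5, at −0.376 and −0.351. The part of GC content or gene length in the order of Wtip among libraries was not tested. With GC and length trends taken out of each library, Wtip had a log2 fold change of −1.06 (SE 0.25, adjusted p = 0.0766), still negative and no longer past the threshold. The call was also lost without NAP 2, 4 or 5 or without control 1, 2 or 5, with adjusted p between 0.0789 and 0.112 in edgeR's test. The log2 fold change over the 11 fits that leave out a library stayed between −1.85 and −1.53. In every fit where Wtip lost its call, 0 of all tested genes passed. In such fits without a library its p still ranked 4 to 9 from the smallest, so the loss there is not particular to Wtip. With both trends removed its own log2 fold change was also smaller in size, and its p ranked 208.

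The other 9 genes lie apart from Wtip, by the deposited GRCm39 positions. Ajuba (54804926 to 54815118) and Lats2 (57927119 to 57983669) are on the minus strand of chromosome 14. Chromosome 9 holds Limd1 (123306790 to 123350617, plus strand), Yap1 (7932000 to 8004890, minus strand) and Amotl2 (102594290 to 102610616, plus strand). Wwtr1 (57363065 to 57483331) and Ccn1 (145352726 to 145355740) are on the minus strand of chromosome 3, and Lats1 (7556964 to 7592225) and Ccn2 (24471340 to 24474581) on the plus strand of chromosome 10.

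**Figure D1:**
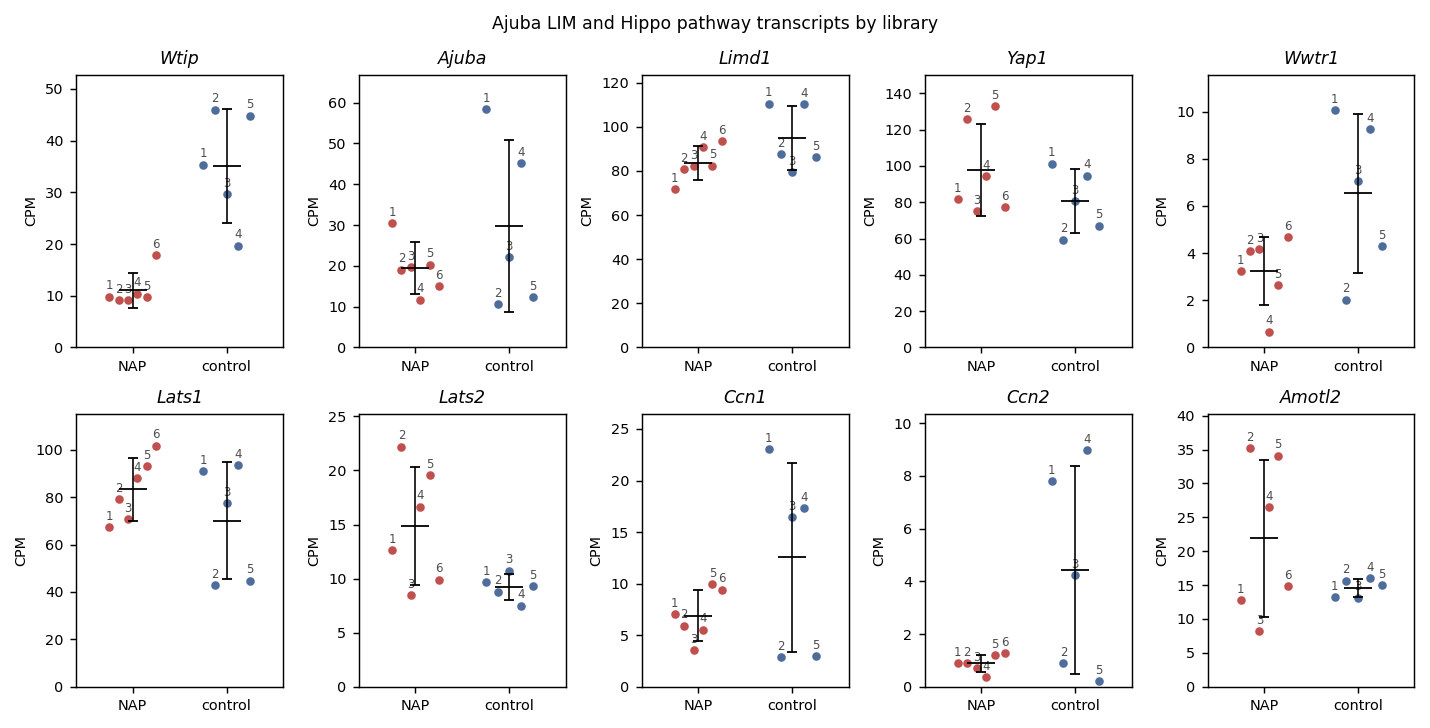
TMM-scaled CPM of the 10 genes in each library (linear axis from 0), NAP left and control right, with replicate numbers beside the points and bars for mean ± SD. Wtip is the gene whose groups do not overlap, at 9.11 to 17.9 CPM after NAP and 19.7 to 45.96 CPM in controls, and Ccn1 and Ccn2 show controls 2 and 5 near the NAP libraries.

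Neither close relative of Wtip passed the test. Ajuba, the LIM protein for which the family is named, had 11.7 CPM in the lowest NAP library, 19.4 CPM at the median and 30.5 CPM in the highest, against 58.3, 10.6, 22.2, 45.3 and 12.2 CPM in controls 1 to 5. Controls 1 and 4 were above every NAP library and control 2 was below all of them. Ajuba missed the threshold with an adjusted p of 0.3904 (log2 fold change −0.62, SE 0.42), and its log2 fold change was 0.39 (SE 0.31) with controls 1 and 4 left out together and −1.08 (SE 0.31, adjusted p = 0.0590) with controls 2 and 5 left out together.

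Limd1, a tumour suppressor gene of the same family, was the steadiest of the 10 in relation to its mean after NAP. It had 71.7 CPM in the lowest NAP library, 82.2 CPM at the median and 93.7 CPM in the highest, against 110.5, 87.7, 79.4, 110.4 and 86.4 CPM in controls 1 to 5. The ranges overlapped between 79.4 and 93.7 CPM (log2 fold change −0.18, SE 0.14, adjusted p = 0.442), and the log2 fold change was 0.01 with controls 1 and 4 left out together.

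On the authors' FPKM scale, which allows levels of different genes to be compared, the 3 family members together summed to 22.5 to 27.3 FPKM in NAP libraries and 32.3 to 49.5 FPKM in controls. Wtip made up 21.6 ± 4.62% of that sum after NAP (SD, n = 6) and 42.3 ± 14.1% in controls (SD, n = 5). Limd1 made up 55.7 ± 5.62% after NAP and 37.9 ± 3.91% in controls. The share of Ajuba was 22.7 ± 7.35% after NAP and 19.9 ± 11.9% in controls. The 3 shares add up to the whole, so a lower Wtip level raises the other shares. Limd1 itself had a mean of 13.2 FPKM after NAP and 14.9 FPKM in controls. The differences in sum and shares largely restate that of Wtip, on which the set was chosen. Controls 2 and 5 had the highest Wtip share, 56.4 and 55.4%, and the lowest Ajuba share, 7.63 and 8.87%, while Wtip and Ajuba were close to equal in control 1, at 33.2 and 32.1%.

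**Figure D2:**
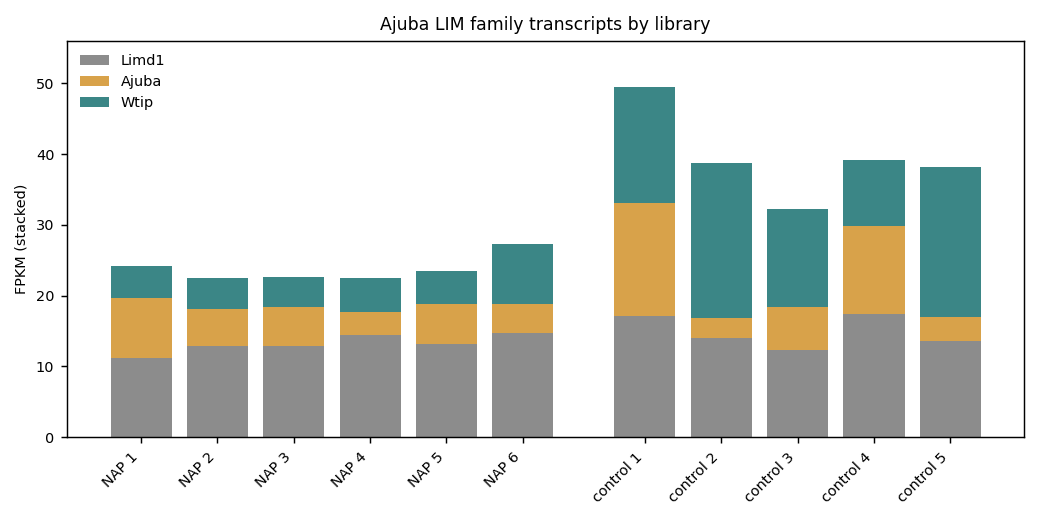
Stacked FPKM of Limd1, Ajuba and Wtip in each library (linear axis from 0), NAP libraries left of control libraries. The 6 NAP libraries sum to 22.5 to 27.3 FPKM and the 5 controls to 32.3 to 49.5 FPKM, with Wtip as the segment that differs most.

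Zyxin relatives, LIM proteins of focal adhesions and junctions, were looked at beside the family. Of 7 tested genes in the combined list, Wtip was the 1 that passed the test, with 5 negative, 2 positive and a median log2 fold change of −0.18. These counts include Wtip, on which the set was chosen, and so are no independent result about the list. The 4 genes of the list outside the 10 had a median of 0.05, with 2 negative and 0 called. Over all 14840 tested genes 2.12% passed in either direction, 1.07% as lower and 1.05% as higher, with a median of −0.07. Trip6, whose protein also binds LATS kinases, had 1.64 to 6.03 CPM in NAP libraries and 16.2, 9.99, 9.04, 9.34 and 9.95 CPM in controls 1 to 5. These ranges did not overlap, and Trip6 missed the threshold narrowly (log2 fold change −1.49, SE 0.36, adjusted p = 0.0501). It passed in 8 of 24 other settings, among them DESeq2 (adjusted p = 0.00206), and its log2 fold change was −0.93 with GC and length trends removed.

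Lpp, the lipoma-preferred partner gene and a zyxin relative, had the opposite sign. It stood at 132.6 to 186.5 CPM in NAP libraries and at 120.1, 100.9, 131.1, 118.4 and 108.5 CPM in controls 1 to 5, so its groups did not overlap either. Lpp missed the threshold with an adjusted p of 0.0746 (log2 fold change 0.51, SE 0.15). It passed in 3 of 24 other settings, which were DESeq2 (adjusted p = 0.0102) and the fits without NAP 1 or without NAP 3. Fblim1 and Zyx had log2 fold changes of 0.23 (SE 0.15) and −0.13 (SE 0.16), and neither passed, while Fblim1 passed as higher with controls 2 and 5 left out together (0.48, adjusted p = 0.0498). DESeq2 called 3 of the 7 genes, Wtip, Trip6 and Lpp, where it called 13.0% of all genes with an adjusted p. The limma voom fit called 2, Wtip and Trip6, where it called 2.04% of all tested genes. Wtip counts in both by the choice of the set. The median of the list was 0.01 with controls 1 and 4 left out together.

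The LATS kinases differed from each other in how they varied. Lats1 had 67.2 CPM in the lowest NAP library, 83.6 CPM at the median and 101.7 CPM in the highest, against 91.1, 42.9, 77.5, 93.6 and 44.8 CPM in controls 1 to 5. Only controls 2 and 5 lay below the NAP range, and the log2 fold change of 0.25 (SE 0.23, adjusted p = 0.524) became −0.04 with those 2 libraries left out together and 0.62 (SE 0.22, adjusted p = 0.0913) with controls 1 and 4 left out together. Lats1 shares 138 bases with Pcmt1 on the other strand. The sources used here do not give the strand setting of the counting, so reads in that stretch are uncertain.

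Lats2, itself a target of YAP and TAZ, was even in controls and spread in NAP libraries. It had 8.51 CPM in the lowest NAP library, 14.6 CPM at the median and 22.2 CPM in the highest, against 9.68, 8.80, 10.7, 7.51 and 9.31 CPM in controls 1 to 5. NAP 2, 4 and 5, at 22.2, 16.7 and 19.5 CPM, and NAP 1, at 12.6 CPM, lay above every control, and NAP 3 and 6 lay within them. The log2 fold change was 0.69 (SE 0.26) and did not pass the test (adjusted p = 0.135).

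Amotl2, an angiomotin family gene whose protein binds YAP and holds it outside the nucleus, showed the same libraries apart. It had 8.24 CPM in the lowest NAP library, 20.7 CPM at the median and 35.3 CPM in the highest, against 13.2, 15.6, 13.2, 15.985 and 14.97 CPM in controls 1 to 5. NAP 2, 4 and 5 stood at 35.3, 26.5 and 34.1 CPM, above every control, and NAP 1 and 3 at 12.7 and 8.24 CPM, below every control. The coefficient of variation was 52.7% in NAP libraries and 9.13% in controls. A log2 fold change of 0.59 (SE 0.34, adjusted p = 0.315) thus stands for a wide spread in NAP libraries, with no shift shared by all of them.

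Among 27 tested Hippo kinases and upstream regulators 0 passed edgeR's test, where 2.12% of all tested genes did. Of the 27, 16 were positive and 11 negative. The median log2 fold change was 0.15, against −0.07 over all tested genes, and it was −0.004 when libraries were scaled by their totals alone. At an unadjusted p below 0.05 there were 6, where 23.6% of all tested genes lay. DESeq2, which called 13.0% of all genes with an adjusted p, called 2, Taok1 and Rassf1, both higher. The limma voom fit, which called 2.04% of all tested genes, called 0. Taok1, a kinase upstream of the cascade, had 95.9 ± 18.6 CPM after NAP and 60.5 ± 13.8 CPM in controls (adjusted p = 0.0726). Rassf1, a scaffold that binds the MST kinases, had 34.9 ± 10.9 CPM after NAP and 19.3 ± 5.20 CPM in controls (adjusted p = 0.0780). Strn3, a subunit of the phosphatase complex that opposes MST kinases, had 84.3 ± 20.6 CPM after NAP and 57.8 ± 8.89 CPM in controls (adjusted p = 0.113). Mob1a, the adaptor that activates LATS, had 111.8 ± 13.2 CPM after NAP and 80.1 ± 25.1 CPM in controls (adjusted p = 0.175). With controls 1 and 4 left out together 5 passed as higher, Fat1, Mob1a, Taok1, Strn and Stk4, and the median was 0.62. In that fit 2.82% of all tested genes passed as higher and 5.46% as lower. With controls 2 and 5 left out together Ptpn14 alone passed, as lower, and the median was −0.01, where 2.71% of all tested genes passed as higher and 2.61% as lower. The cadherin genes Fat4 and Dchs1 were too low to be tested.

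The coactivator gene Yap1 had overlapping groups and did not pass the test. It had 74.9 CPM in the lowest NAP library, 88.0 CPM at the median and 133.0 CPM in the highest, against 101.2, 59.4, 80.7, 94.6 and 67.1 CPM in controls 1 to 5. NAP 2 and 5, at 125.9 and 133.0 CPM, were above every control, and the other 4 NAP libraries lay among the controls (log2 fold change 0.28, SE 0.21, adjusted p = 0.432). The log2 fold change was 0.11 (SE 0.21) with controls 2 and 5 left out together. With controls 1 and 4 left out together it was 0.53 (SE 0.22, adjusted p = 0.142 in edgeR's test). The 3 NAP libraries highest in Yap1, NAP 2, 4 and 5, were also the 3 highest in Lats2 and in Amotl2. The same libraries had 10604 to 12337 CPM of colonocyte markers and 325 to 375 CPM of stem cell markers, against 7246 to 8931 CPM and 590 to 611 CPM in NAP 1, 3 and 6, and the part of these markers in the Yap1, Lats2 and Amotl2 levels was not tested.

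Wwtr1, the gene of TAZ, was scarce in all libraries. It had 0.669 CPM in the lowest NAP library, from 11 counts, 3.65 CPM at the median and 4.67 CPM in the highest, against 10.05, 2.03, 7.05, 9.25 and 4.30 CPM in controls 1 to 5. Controls 1, 3 and 4 lay above every NAP library, and controls 2 and 5 lay within the NAP range. The log2 fold change was −1.01 (SE 0.47, adjusted p = 0.215), and it was −0.44 with controls 1 and 4 left out together and −1.41 (SE 0.43, adjusted p = 0.0679) with controls 2 and 5 left out together.

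The TEAD factors are the DNA-binding partners of YAP and TAZ. In the list of coactivators and partners 0 of 7 tested genes passed edgeR's test, where 2.12% of all tested genes did. The median was −0.18. Of the 7, 6 were negative, where 55.3% of all tested genes were, and 2 had an unadjusted p below 0.05, where 23.6% of all tested genes lay. DESeq2, which called 13.0% of all genes with an adjusted p, called 1, Tead2, lower. The limma voom fit, which called 2.04% of all tested genes, called 0. Tead2 had 3.18 ± 1.86 CPM after NAP and 10.03 ± 8.69 CPM in controls (adjusted p = 0.136), and Tead4 had 4.08 ± 2.58 CPM after NAP and 10.5 ± 10.3 CPM in controls (adjusted p = 0.196). Both were highest in controls 1 and 4. Tead2 stood at 16.2, 3.28, 7.88, 21.6 and 1.15 CPM in controls 1 to 5, and Tead4 had a log2 fold change of 0.13 with controls 1 and 4 left out together. Tead3 and the TEAD cofactor Vgll4 were at log2 fold changes of −0.18 (SE 0.18) and −0.14 (SE 0.29), and neither passed. With controls 2 and 5 left out together Tead2 passed as lower, where 2.61% of all tested genes did, and the median of the list was −0.53. With controls 1 and 4 left out together the median was 0.13, with 3 of 7 negative.

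Ccn1 and Ccn2 encode secreted matricellular proteins and are the targets most often read as YAP and TAZ activity. Ccn1 had 3.52 CPM in the lowest NAP library, 6.48 CPM at the median and 9.93 CPM in the highest, against 23.1, 2.86, 16.4, 17.4 and 3.01 CPM in controls 1 to 5. Controls 1, 3 and 4 were above every NAP library and controls 2 and 5 below all of them. The log2 fold change was −0.87 (SE 0.51) and did not pass (adjusted p = 0.322).

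Ccn2 was lower still, with 6 to 27 counts in NAP libraries and 169, 13, 98, 196 and 3 counts in controls 1 to 5. It had 0.365 CPM in the lowest NAP library, 0.896 CPM at the median and 1.27 CPM in the highest, against 7.79, 0.908, 4.24, 8.98 and 0.215 CPM in controls 1 to 5. The order of the controls was close to that of Ccn1, with controls 1, 3 and 4 high and controls 2 and 5 at or under the NAP range. The log2 fold change of −2.32 (SE 0.70) was the 20th lowest of all tested genes and did not pass edgeR's test (adjusted p = 0.0807), but did in DESeq2 (adjusted p = 0.0137).

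The results for Ccn1 and Ccn2 depended on which controls were used. With controls 2 and 5 left out together, Ccn1 and Ccn2 both passed edgeR's test as lower after NAP, at log2 fold changes of −1.43 (SE 0.30, adjusted p = 0.0386) and −2.94 (SE 0.39, adjusted p = 0.0180). With controls 1 and 4 left out together the log2 fold changes were −0.10 (SE 0.53, adjusted p = 0.918) and −1.002 (SE 0.70, adjusted p = 0.364). Controls 1, 3 and 4, where both genes were high, had 1422, 718 and 1786 CPM of stem cell markers, mostly Slc12a2, and controls 2 and 5 had 159 and 161 CPM. Fibroblast and muscle markers, mostly Pdgfrb, stood at 4.10, 12.8 and 2.52 CPM in controls 1, 3 and 4 and at 33.0 and 31.7 CPM in controls 2 and 5. In the fit without controls 2 and 5, where both genes passed, stem cell markers also passed as lower and colonocyte markers as higher. Controls 2 and 5 are the controls lowest in Ccn1, Ccn2 and the stem cell marker sum and highest in the colonocyte marker sum. These calls thus follow from which libraries were left out. Controls 2 and 5 also had the most genes detected of all libraries. The part of any of these markers, or of this difference between libraries, in the Ccn1 and Ccn2 levels was not tested.

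**Figure D3:**
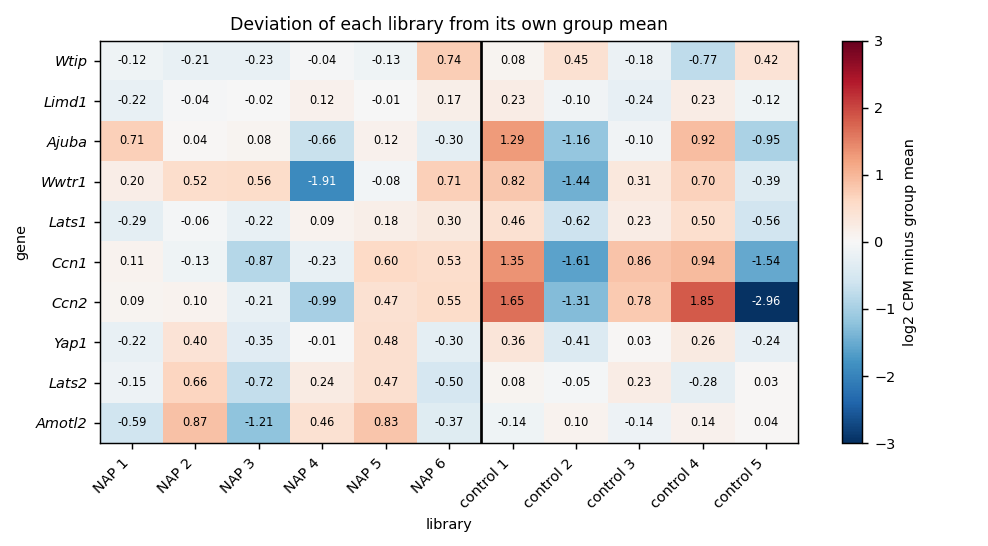
Deviation of log2 CPM from the mean of the library's own group for the 10 genes (rows) in the 6 NAP and 5 control libraries (columns, NAP left of the line). Ccn1, Ccn2, Ajuba, Wwtr1, Lats1, Yap1 and, by less, Limd1 are positive in controls 1 and 4 and negative in controls 2 and 5. Wtip is negative in control 4 and positive in controls 2 and 5, and Amotl2 and Lats2 vary mainly among NAP libraries.

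A list of 22 YAP and TAZ target genes, which includes Ccn1, Ccn2, Amotl2 and Lats2, had 17 tested members. Of these 0 passed edgeR's test, where 2.12% of all tested genes did, and 6 had an unadjusted p below 0.05, against 23.6% of all tested genes. There were 9 negative and 8 positive, with a median log2 fold change of −0.20. The median was not stable. It was 0.31 with a filter of 1 CPM in 5 libraries, which leaves 15 of the genes, 0.31 without control 4, 0.05 without NAP 6 and 0.38 with controls 1 and 4 left out together. DESeq2, which called 13.0% of all genes with an adjusted p, called F3 higher and Ccn2 lower. The limma voom fit, which called 2.04% of all tested genes, called 0. F3, the tissue factor gene, had 443 ± 79.8 CPM after NAP and 246 ± 121.2 CPM in controls (adjusted p = 0.0930), with control 3 at 457 CPM and the other controls at 151.7 to 221.7 CPM. Asap1, which regulates the small GTPase ARF, had 21.5 ± 6.28 CPM after NAP and 14.9 ± 0.999 CPM in controls (adjusted p = 0.143), with its highest value of 32.7 CPM in NAP 2.

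Other targets were high in a pair of controls. Ptpn14, a phosphatase gene whose protein binds YAP, had 2.39 to 6.67 CPM in NAP libraries and 23.3, 1.54, 7.75, 29.0 and 1.0025 CPM in controls 1 to 5 (adjusted p = 0.184), high in the same controls as Ccn1. Its log2 fold change of −1.63 became 0.24 with controls 1 and 4 left out together. Rbms3, an RNA-binding protein gene, had 0.0558 to 1.93 CPM in NAP libraries and 0.184, 4.96, 0.736, 1.65 and 4.22 CPM in controls 1 to 5 (adjusted p = 0.184), high in the other pair of controls. With controls 2 and 5 left out together the target list had 1 call higher, Nt5e, and 4 lower, Ccn1, Ccn2, Ptpn14 and Arhgef17. In that fit 2.71% of all tested genes passed as higher and 2.61% as lower. With controls 1 and 4 left out together the list had 0 calls, where 2.82% of all tested genes passed as higher and 5.46% as lower.

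Genes of proteins reported to bind Ajuba LIM proteins were listed as well. Of 11 tested, 0 passed edgeR's test, 6 were negative and 3 had an unadjusted p below 0.05. Over all tested genes 2.12% passed, 55.3% were negative and 23.6% had an unadjusted p below 0.05. The median was −0.02, and it was above 0 in other settings, among them RLE scaling, at 0.002, and 0.28 with controls 1 and 4 left out together. DESeq2, which called 13.0% of all genes with an adjusted p, called Vhl, higher. The limma voom fit, which called 2.04% of all tested genes, called 0. Vhl, the ubiquitin ligase subunit that marks hypoxia-inducible factor for degradation, had 29.1 ± 4.09 CPM after NAP and 20.96 ± 2.18 CPM in controls (adjusted p = 0.0889). Egln1, the prolyl hydroxylase of the same step, had 184 ± 35.7 CPM after NAP and 133 ± 33.2 CPM in controls (adjusted p = 0.193). Ror2, a Wnt receptor gene, had 1.97 ± 0.81 CPM after NAP and 4.36 ± 2.82 CPM in controls (adjusted p = 0.138), and Ctnna1, the alpha-catenin gene, 548 ± 49.2 CPM after NAP and 468 ± 23.8 CPM in controls (adjusted p = 0.360). Wt1, for which Wtip is named, and Snai1 were too low to be tested, and Snai2 had 0 counts in all 11 libraries. With controls 2 and 5 left out together Ago2 and Ror2 passed as lower, where 2.61% of all tested genes did.

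**Figure D4:**
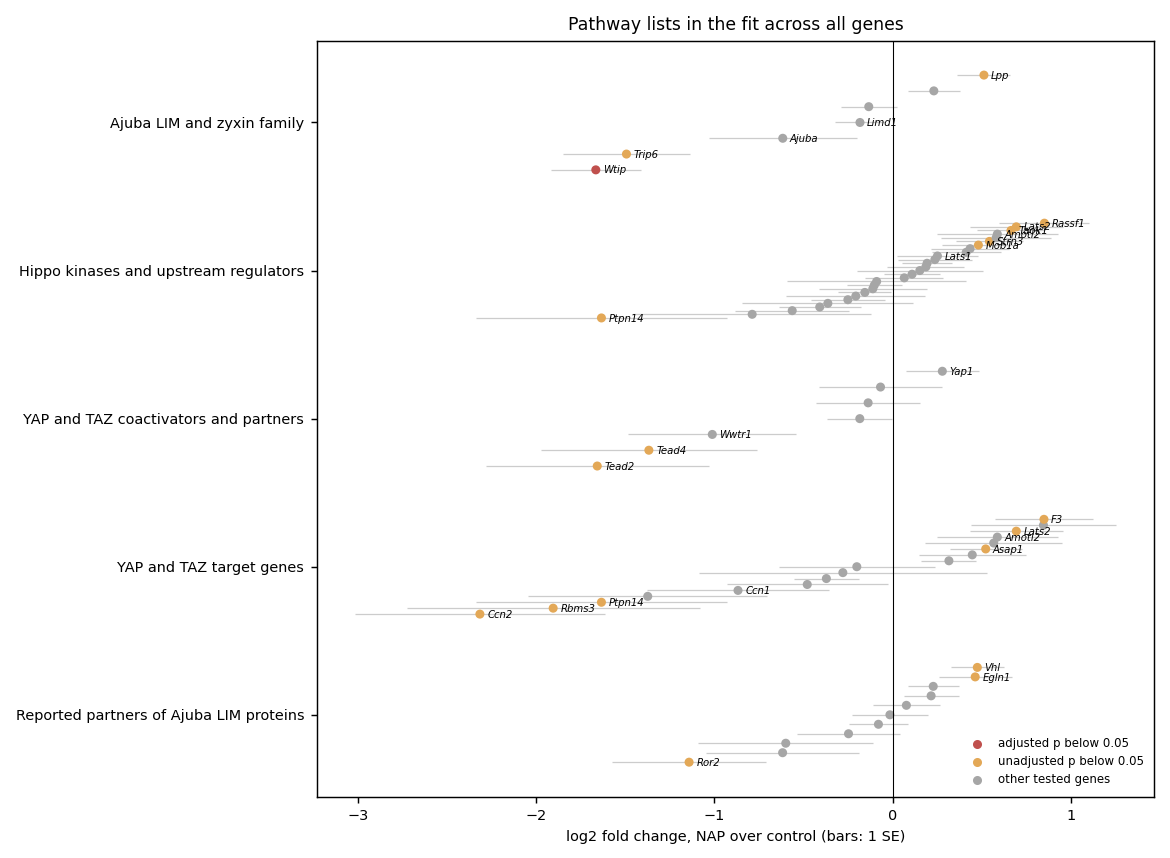
Log2 fold change (NAP over control, bars 1 SE) of each tested gene in the 5 pathway lists, coloured by whether it passed an adjusted p of 0.05 over all genes or an unadjusted p of 0.05. Wtip, at −1.67, is the one gene past the adjusted threshold, and genes with the most negative values, such as Ccn2 at −2.32, have wide bars.

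The order of levels between genes was read from FPKM. In NAP libraries Yap1 was highest at 21.2 ± 5.66 FPKM (SD, n = 6), followed by Limd1 at 13.2 ± 1.24, Lats1 at 11.1 ± 1.79, Ajuba at 5.37 ± 1.74 and Wtip at 5.21 ± 1.58. Lower levels there were those of Amotl2 at 4.38 ± 2.33 FPKM, Ccn1 at 3.30 ± 1.17, Lats2 at 2.56 ± 0.95, Wwtr1 at 0.657 ± 0.293 and Ccn2 at 0.358 ± 0.134. Neighbours in this order lay within the sum of their SDs except for Yap1 and Limd1, Lats1 and Ajuba, and Lats2 and Wwtr1.

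In controls Yap1 stood at 17.3 ± 3.69 FPKM (SD, n = 5), Wtip at 16.499 ± 5.24, Limd1 at 14.9 ± 2.25, Lats1 at 9.24 ± 3.21 and Ajuba at 8.15 ± 5.75. Lower levels there were those of Ccn1 at 5.94 ± 4.29 FPKM, Amotl2 at 2.89 ± 0.29, Ccn2 at 1.77 ± 1.58, Lats2 at 1.57 ± 0.19 and Wwtr1 at 1.31 ± 0.67. Only Limd1 and Lats1 were neighbours further apart than the sum of their SDs. Wtip thus ranked 5 of 10 in NAP libraries and 2 of 10 in controls. Yap1 exceeded Wwtr1 in every library, by 17.6 to 150.7 times in NAP libraries and 10.8 to 31.3 times in controls. The highest ratio was that of NAP 4, with its 11 counts of Wwtr1, and the next was 53.8.

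Genes that followed Wtip from library to library were sought after the mean of each group had been taken off, so that the difference between groups did not enter. Over the 11 libraries none of the other 9 genes had a positive Pearson correlation with Wtip, and the values ran from −0.59 for Ajuba to −0.07 for Limd1. Within the 6 NAP libraries, where NAP 6 stood apart in Wtip, 5 of the 9 were positive, at 0.69 for Lats1, 0.65 for Limd1, 0.54 for Ccn1, 0.40 for Ccn2 and 0.20 for Wwtr1, so the sign over all libraries rested on the controls for these genes. Among 11038 named genes that averaged 1 or more on the log2 CPM scale, the highest was Mri1, an enzyme of methionine salvage (r = 0.94, Spearman rho = 0.88, and r = 0.94 without NAP 6 and control 4, the libraries farthest from the median of Wtip). Next came Pcyox1 at 0.92, Mrpl45 at 0.92, Aig1 at 0.90, Bet1 at 0.90 and Aco1 at 0.89, which were 0.70 to 0.82 without those 2 libraries. All values of a library share its depth and base composition, and the correlations are given as a description.

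Mri1 passed the test as Wtip did. It had 22.2 CPM in the lowest NAP library, 23.2 CPM at the median and 27.6 CPM in the highest, which was NAP 6 as for Wtip, against 48.4, 58.4, 44.9, 34.7 and 52.6 CPM in controls 1 to 5, of which control 4 was again the lowest. Mri1 was lower by a log2 fold change of −0.997 (SE 0.15, adjusted p = 0.0343), and its transcript GC content was 57.8%. As for Wtip, the call was lost with GC and length trends removed (−0.55, adjusted p = 0.0863). It was also lost without NAP 2, 4 or 5 or control 1, 2 or 5 (adjusted p 0.0789 to 0.112). In each of these fits 0 of all tested genes passed, so the shared loss in the fits without a library is not particular to the 2 genes. With both trends removed the log2 fold changes of both genes were also smaller in size. The other 5 genes did not pass, with log2 fold changes of −0.44 (SE 0.19) for Mrpl45 and −0.20 to −0.12 for Pcyox1, Aig1, Bet1 and Aco1.

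**Figure D5:**
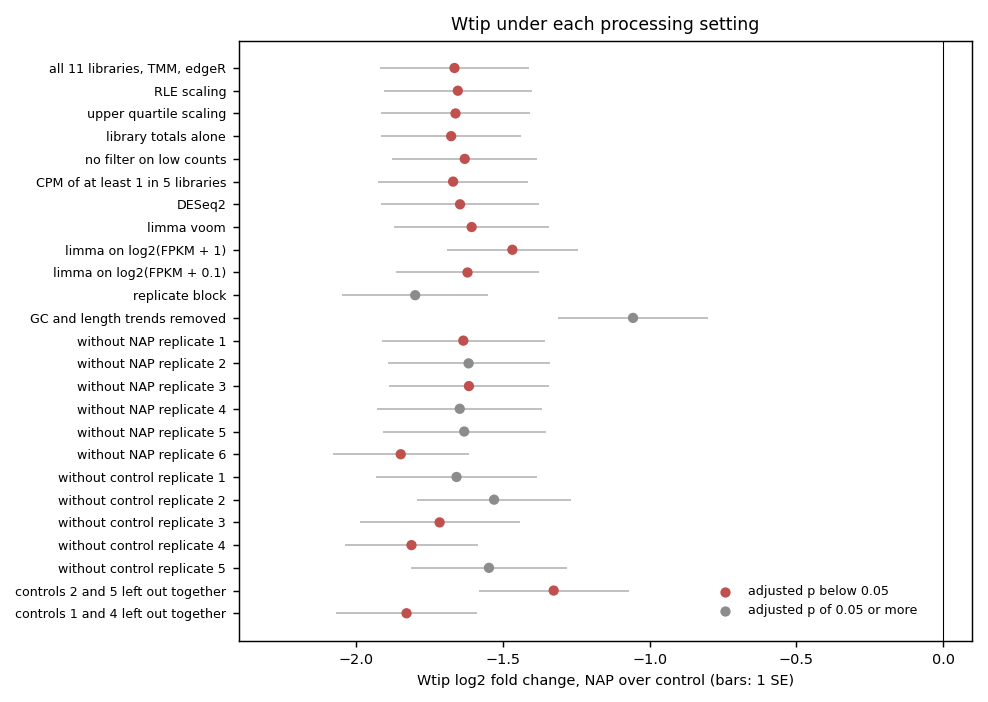
Log2 fold change of Wtip (NAP over control, bars 1 SE) with all libraries and under 24 other settings, coloured by whether the adjusted p was below 0.05. Every value is negative, from −1.85 without NAP 6 to −1.06 with GC and length trends removed, and 8 of the 24 settings have an adjusted p of 0.05 or more.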

How the data were processed

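RNA of 6 NAP and 5 control organoid libraries was measured by poly(A)-selected, random-primed Illumina sequencing, per the labels' protocols. The authors deposited raw counts as whole numbers and, in another table, FPKM values, each by gene and library. Trimming used Trimmomatic 0.39, per the submitters' processing notes, and reads were mapped to GRCm39 by HISAT2 2.2.1 and assigned to genes by featureCounts (Subread 2.0.8). The sources used here give no strand setting, annotation release or rule for reads that match several places.

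NAP over control was tested on TMM-scaled counts after filterByExpr at its defaults. The tool was edgeR 4.0.16 in R 4.3.3 (robust quasi-likelihood), with Benjamini-Hochberg adjustment over 14840 genes at 0.05. Each standard error was derived from the fold change and its F statistic. Logged CPM used a prior count of 2. The limit that 0 counts allow, 3 counts, was 0.137 to 0.181 CPM by library and covers counting error only. FPKM served for levels between genes. Marker sums were compared by exact permutation over the 462 splits of 11 libraries. Where libraries were left out, the smaller number of splits of the remaining libraries was used.

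The 10 genes, the pathway lists and the alternatives were chosen with earlier results of these data known. Named were the 10 genes, in each list the called genes and the 4 other genes with the smallest p, and the 6 genes closest to Wtip by correlation. Genes named for calls made only with libraries left out were picked after their values were seen. Alternatives were other scalings and filters, DESeq2 1.42.0, limma 3.58.1 (voom, log2(FPKM + 1), log2(FPKM + 0.1)), a replicate block, GC and length trends removed (lowess, span 0.3; GC from GENCODE M21 for 84.0% of tested genes) and libraries left out. Simulated counts with known changes served to test the fits. No 2 libraries agreed within sampling noise, by a chi-square of their counts per gene. Controls 2 and 5 were the most alike, at 7.68, against 134.9 to 323.5 for either with another control. NAP 2, 4 and 5 had 14.7 to 24.4 with each other and 70.9 to 152.9 with other NAP libraries. The labels do not say whether libraries so alike are independent, and each n counts libraries. Protein sequences were not used here.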

Additional observations from a re-analysis of the deposited data

Results flagged for a closer look

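A single library stood apart from the rest of its group in 8 of 86 sets of values examined with Dixon's test at the 95% level, which chance alone flags in about 1 of 20. NAP 6 was the library in 5 of them. It had 17.9 CPM of Wtip, where the other NAP libraries had 9.11 to 10.4 CPM. It also stood above the other NAP libraries in Aig1, at 84.98 against 54.0 to 62.1 CPM, in Bet1, at 41.1 against 18.4 to 25.2 CPM, and in Aco1, at 156.4 against 135.3 to 139.8 CPM, all of which were selected for following Wtip. Rbms3 was the other gene with NAP 6 apart, at 1.93 against 0.0558 to 0.539 CPM. Among controls, Trip6 was high in control 1, at 16.2 against 9.04 to 9.99 CPM, F3 in control 3, at 457 against 151.7 to 221.7 CPM, and the sum of goblet cell markers in control 4, at 7045 against 3257 to 3864 CPM.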

How the results depend on the processing

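Wtip kept its negative sign in 24 of 24 other settings and passed the threshold in 16, with adjusted p from 2.33e-06 (DESeq2) to 0.130. Its log2 fold change was −1.06 with GC and length trends removed (adjusted p = 0.0766) and −1.80 with a replicate block (adjusted p = 0.130). Nothing in the labels pairs libraries of the same number, and the deviations of same-numbered libraries correlated at 0.42, 0.34, −0.07, −0.30 and 0.30, so the numbers were not taken as pairs. NAP 1 and NAP 5 correlated best with the control of their own number and the other 3 did not. Mri1 was also not called with the replicate block (adjusted p = 0.130). Leaving out each library in turn gave −1.85 to −1.53 for Wtip, 0 to 814 genes called, 0 to 2 pathway list genes called lower and 0 to 3 called higher. The 2 lower came without NAP 1 or without NAP 3, which called 814 and 790 genes in all, and the 3 higher without NAP 1. Of 315 genes called, the count became 41 with library totals alone, 89 with no filter, 1656 with DESeq2, 0 with the replicate block, 0 with GC and length trends removed (2333 at an unadjusted p below 0.05), 1480 at an adjusted p of 0.1, 824 without controls 2 and 5 and 1315 without controls 1 and 4. Pathway list genes called lower, 1 with all libraries, were 2 with RLE scaling, the CPM filter, limma voom and both FPKM fits, 4 with DESeq2, 0 with the replicate block or the GC and length trends removed and 8 without controls 2 and 5. Those called higher, 0 with all libraries, were 5 with DESeq2, 2 without controls 2 and 5 and 5 without controls 1 and 4. The lists had 7, 27, 7, 17 and 11 tested genes, some in more than 1 list. Over all tested genes 159 were called lower with all libraries, 145 with RLE scaling, 204 with the CPM filter, 160 with limma voom and 198 and 197 in the FPKM fits. In DESeq2 817 were lower and 839 higher, without controls 2 and 5 404 and 420, and without controls 1 and 4 448 were higher. These counts are no result about the pathway. The cause of these moves was not tested.

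Signs that turned belonged to genes and marker sums that did not pass with all libraries. Without controls 2 and 5 they were Lats1 at −0.044, Zyx at 0.0018, Aig1 at 0.055 and Bet1 at 0.21. Without controls 1 and 4 they were Ajuba at 0.39, Limd1 at 0.014, Tead4 at 0.13, Vgll4 at 0.35 and Ptpn14 at 0.24. With GC and length trends removed Zyx was at 0.23, Tead3 at 0.17 and Vgll4 at 0.18. Vgll4 was also at 0.026 on log2(FPKM + 0.1), 0.082 with the replicate block and 0.11 without control 4 (−0.31 to 0.11 over single libraries left out), and Bet1 at 0.0081 without control 5 (−0.32 to 0.0081). Marker sums (NAP minus control, CPM) turned to −0.401 for fibroblast and muscle markers without NAP 5 (highest 10.01 over single libraries left out), −259 and −487 for colonocyte markers without control 1 or 4 (highest 3086), 148.5 for goblet cell markers without control 4 (lowest −791), 1511 for epithelial markers without controls 2 and 5, and −2460.4, 128.4, 299 and −2.70 for colonocyte, stem cell, goblet cell and fibroblast and muscle markers without controls 1 and 4. Without controls 2 and 5, marker sums that passed were 6215 CPM for colonocyte and −845 CPM for stem cell markers (exact permutation test, adjusted p = 0.0417 each). Controls 2 and 5 had the highest colonocyte and lowest stem cell marker sums of the controls, so leaving them out led to these calls. Depth limits Rbms3, Ccn2 and Wwtr1, with as few as 1, 3 and 11 counts in a library.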
